A study of Mus musculus with 6 samples.

Results

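Endothelial cells line blood vessels, and 10 genes that mark them were followed in 6 libraries of cultured mouse pancreatic acinar cells: Kdr, Flt1, Tek, Eng, Cdh5, Pecam1, Esam, Plvap, Emcn and Egfl7. They were taken by symbol from the deposited count tables, where each of the 10 stood on 1 of the 23282 rows, and all 10 passed the filter on low counts. The 3 cKO libraries came from cells of genotype ERRgamma -/-, a conditional knock-out of the nuclear receptor ERRγ (gene Esrrg) in pancreatic acinar cells, and the 3 control libraries from wild type cells. Strain C57BL/6J, the pancreas as tissue and primary acinar cells as cell type are given for both groups, as is the culture in Waymouth's medium with 2.5% serum, 0.25 mg/ml of a trypsin inhibitor and 25 ng/ml of epidermal growth factor. The sources used here do not state the way the gene was deleted, any Cre driver, the animals' age, the time in culture or any step that removes vessel cells. Libraries carry replicate numbers 1 to 3 with no word on separate animals, so the p-values rest on a spread among libraries that may be technical. Each library counted 3' ends of polyadenylated RNA (Lexogen QuantSeq, 500 ng of total RNA), with totals of 15.2 to 17.0 M counts in cKO and 23.0 to 25.2 M in control, where M stands for 1e6. Esrrg itself had 0, 9 and 1 counts in cKO replicates 1, 2 and 3, and 0 counts in each control library. Such tags need not come from the deleted exons, so these counts do not check the labels.

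Endothelial cells form the inner wall of capillaries and larger vessels, and those of the exocrine pancreas and islets carry fenestrae, small pores closed by a diaphragm. They take survival and growth signals from vascular endothelial growth factor (VEGF) through the receptors encoded by Kdr and Flt1, and from angiopoietins through the receptor encoded by Tek. Endoglin (Eng) is a co-receptor for bone morphogenetic proteins and TGF-β, while VE-cadherin (Cdh5), Pecam1 and Esam hold neighbouring cells together. In bulk RNA, as here, fewer cells of a type and less RNA per cell cannot be told apart. Several of the 10 genes are not confined to endothelium: Pecam1 is also known from platelets and leukocytes, Eng from macrophages and fibroblasts, and Flt1 from monocytes.

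Promoters of 6 of the 10 genes were in the RefSeq table of build GRCm38.p6 (250 bases before to 50 after a start), 8 in all since Egfl7 has 3. ETS factors such as ERG and FLI1 are known regulators of endothelial genes. Promoters were searched on both strands for the ETS core AGGAAG, the FOX core TGTTTAC, the GATA core AGATAAG and the core of an ERR element, AAGGTCA. Those of Kdr, Flt1 and Emcn, which fell as described below, and of Tek, which had the highest fold change of the 10, are shown 5' to 3' with matches in capitals.
Kdr, chr5:75978406-75978705, minus strand: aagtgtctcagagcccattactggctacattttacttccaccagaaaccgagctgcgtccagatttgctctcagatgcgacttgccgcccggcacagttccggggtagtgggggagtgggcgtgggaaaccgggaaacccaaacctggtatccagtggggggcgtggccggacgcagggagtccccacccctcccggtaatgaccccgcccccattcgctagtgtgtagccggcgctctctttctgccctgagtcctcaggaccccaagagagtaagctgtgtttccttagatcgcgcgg
Flt1, chr5:147725962-147726261, minus strand: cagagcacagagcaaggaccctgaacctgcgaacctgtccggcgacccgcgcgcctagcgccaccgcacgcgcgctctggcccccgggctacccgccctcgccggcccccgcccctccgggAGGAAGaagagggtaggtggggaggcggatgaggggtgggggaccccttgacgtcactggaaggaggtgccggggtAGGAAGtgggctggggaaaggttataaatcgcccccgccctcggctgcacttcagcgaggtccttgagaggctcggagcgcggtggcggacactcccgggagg
Emcn, chr3:137340828-137341127, plus strand: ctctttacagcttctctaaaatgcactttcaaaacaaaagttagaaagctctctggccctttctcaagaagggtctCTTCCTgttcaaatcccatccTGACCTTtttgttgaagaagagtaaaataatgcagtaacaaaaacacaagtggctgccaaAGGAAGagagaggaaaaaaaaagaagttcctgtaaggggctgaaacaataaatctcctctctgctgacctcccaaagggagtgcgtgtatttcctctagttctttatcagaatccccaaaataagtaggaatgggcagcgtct
Tek, chr4:94739039-94739338, plus strand: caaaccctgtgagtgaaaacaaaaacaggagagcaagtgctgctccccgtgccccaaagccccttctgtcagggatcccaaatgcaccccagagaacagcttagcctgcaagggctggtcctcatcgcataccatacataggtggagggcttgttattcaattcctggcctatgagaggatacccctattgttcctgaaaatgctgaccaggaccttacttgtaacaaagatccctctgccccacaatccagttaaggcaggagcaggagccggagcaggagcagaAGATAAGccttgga
AGGAAG stood in 5 of the 8 promoters, of 4 genes (Egfl7, Eng, Emcn and Flt1), against 35.4% of all 32851 promoters in the table. Flt1 carried it 129 and 53 bases before the start and Emcn 174 and 93 bases before it, the match at 174 on the opposite strand. AAGGTCA was found in 1 promoter, 153 bases before the Emcn start on the opposite strand, and in 4.7% of all promoters. AGATAAG was found 37 bases after the Tek start and in 3.0% of all promoters, and TGTTTAC in 0 of the 8 and 3.6% of all. The Kdr window held none of these exact strings, and shorter or other forms of the motifs were not searched for. The motifs do not overlap each other here, and a match is a string of letters, not a measured site.

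The summed counts of the 10 genes were 2931, 2399 and 3207 in cKO replicates 1, 2 and 3, and 649, 715 and 736 in control replicates 1, 2 and 3. How this reads depends on the denominator: counts outside the 50 genes most abundant in control and the 12 acinar marker genes came to 9.17 ± 2.71 M in cKO and 1.6 ± 0.0626 M in control (SD, n = 3 each), out of 16.2 ± 0.913 M in cKO and 24.2 ± 1.1 M in control. Of all counts in a library, the 10 genes took 177 ± 30.7 counts per M in cKO and 29.0 ± 2.76 in control (SD, n = 3 each), a ratio of 6.10. Outside those abundant genes they took 323 ± 65.4 per M in cKO and 437 ± 31.7 in control, a ratio of 0.739. Per M of the TMM-scaled library size, which centres the bulk of genes on no difference, the values were 49.3, 72.3 and 53.4 in cKO and 86.2, 84.1 and 93.4 in control, a ratio of means of 0.664. The 10 genes thus made up more of the RNA counted in cKO, where 96.4% of all tested genes were called higher on library totals. Relative to the genes outside the most abundant ones the 10 genes made up less. This covers these 10 genes only, and other endothelial genes, described below, were mixed. Of the cKO libraries, replicate 2 lay nearest to the controls on both of the last scales, and it also held the most acinar transcripts: the 12 acinar marker genes summed to 121100 CPM (counts per M, TMM-scaled) in cKO replicate 2, 21010 and 32110 in cKO replicates 1 and 3, and 815500 to 949600 in control. Of all counts in a library the same 12 genes took 236800 per M in cKO replicate 2 and 82300 and 117800 in cKO replicates 1 and 3. In control they took 275200 to 292500 per M. The part of these transcripts in the difference was not tested.

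**Figure D1:**
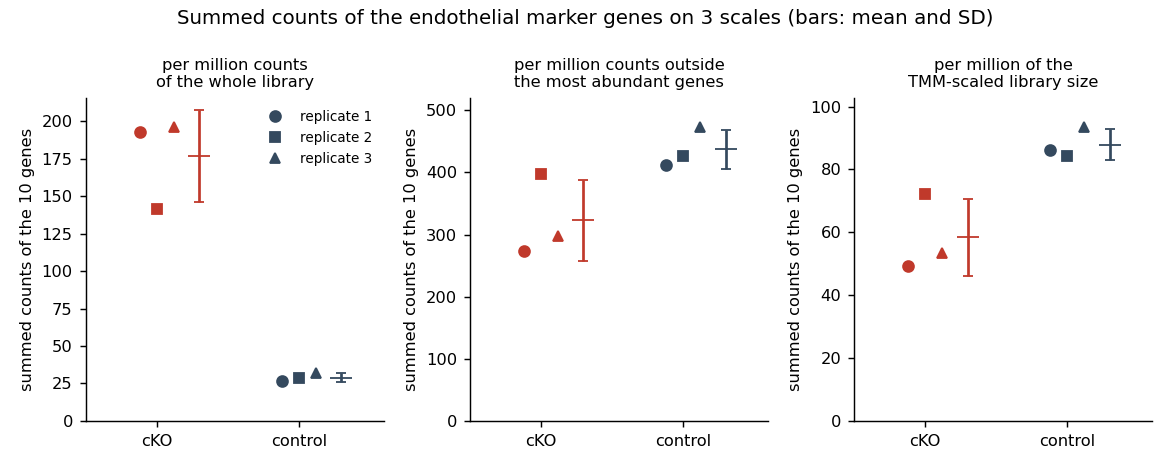
Summed counts of the 10 endothelial marker genes per M counts of the whole library, per M counts outside the most abundant genes, and per M of the TMM-scaled library size; points are libraries, cKO left and control right, and the bar beside them is mean and SD (n = 3). The cKO libraries lie at 141 to 196 per M against 26.6 to 32.0 in control in the left panel, and below all control libraries in the other panels.

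On the TMM scale 5 of the 10 genes fell in cKO (Kdr, Emcn, Egfl7, Plvap and Flt1) and 0 rose at an adjusted p under 0.05 in edgeR's quasi-likelihood test, where 44.7% of all 13132 tested genes were called, 20.7% lower and 24% higher. Their median log2 fold change was -0.81, with 0.10 as the median of all tested genes. Without control replicate 3 only Kdr, Plvap and Flt1 (3 of 10) were called lower. Levels of the groups did not overlap for 9 of the 10 genes, 8 of them lower in cKO, while 56.2% of all tested genes did not overlap, 25.4% in the direction of lower. Fitted on library totals all 10 genes were higher in cKO with a median log2 fold change of 2.43, but so were 96.4% of all tested genes (0.404% lower), with a median of 3.36. Unless another scale is named, the fold changes below are log2 values on the TMM scale, and "rose" and "fell" are meant relative to the bulk of genes.

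**Figure D2:**
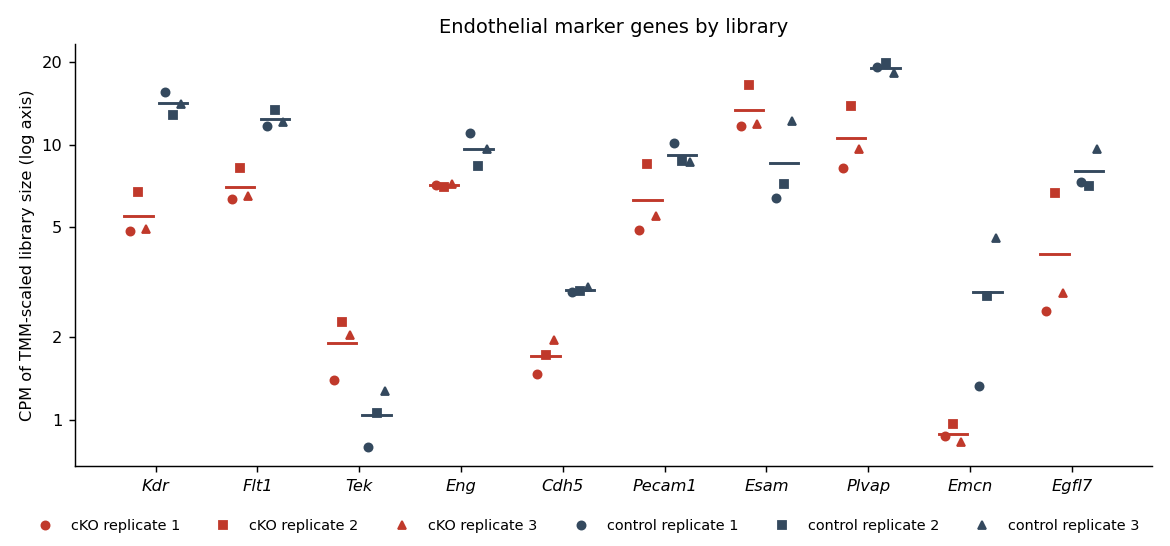
Level of each endothelial marker gene in every library in CPM of the TMM-scaled library size (log axis); cKO libraries stand left of control libraries, symbols mark replicate numbers and lines the means of 3. The cKO points lie below the control points for 8 genes and above them for Tek, and the groups overlap for Esam.

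Among the growth factor receptors both VEGF receptor genes fell. Kdr, which encodes VEGFR2, the main signalling receptor of endothelial growth (ENSMUSG00000062960.10, chromosome 5, 75932827 to 75978458, minus strand, GRCm38), had 288, 224 and 296 counts in cKO and 117, 109 and 111 in control. That is 4.85, 6.75 and 4.93 CPM in cKO against 15.5, 12.8 and 14.1 CPM in control on the TMM scale. The highest cKO library, replicate 2, lay well below the lowest control library, and the fold change was -1.37 ± 0.21 (SE; adjusted p = 0.000122). Flt1, which encodes VEGFR1, a receptor that binds VEGF tightly and also occurs as a soluble form (ENSMUSG00000029648.13, chromosome 5, 147561604 to 147726011, minus strand), had 377, 272 and 391 counts in cKO and 88, 114 and 95 in control. Its levels were 6.34, 8.20 and 6.52 CPM in cKO against 11.7, 13.4 and 12.1 CPM in control, with a fold change of -0.82 ± 0.20 (adjusted p = 0.00426). Every cKO library lay below every control library for both genes. The counts per symbol do not separate the membrane and soluble forms of Flt1.

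Tek, which encodes the angiopoietin receptor TIE2 (ENSMUSG00000006386.15, chromosome 4, 94739289 to 94874976, plus strand), went the other way without passing the test. It had 83, 75 and 122 counts in cKO and only 6, 9 and 10 in control, or 1.40, 2.26 and 2.03 CPM in cKO against 0.797, 1.06 and 1.27 CPM in control. The groups did not overlap, but with so few control counts the fold change of 0.85 ± 0.47 had an adjusted p of 0.156. Eng (ENSMUSG00000026814.16, chromosome 2, 32646595 to 32682669, plus strand) had 425, 233 and 431 counts in cKO and 83, 71 and 76 in control. On the TMM scale these were 7.15, 7.02 and 7.18 CPM in cKO, with an SD of 0.0854 CPM, against 11, 8.36 and 9.65 CPM in control. The fold change was -0.44 ± 0.21 (adjusted p = 0.102). Eng shares 61 exon bases at its 3' end with Fpgs on the opposite strand, a gene with 189, 191 and 322 counts in cKO and 110, 100 and 97 in control. The strand setting of the counting is not given in the sources used here, so tags in that overlap cannot be assigned to one of these genes with certainty.

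None of the 3 junction genes passed the test on the TMM scale. Cdh5, which encodes VE-cadherin (ENSMUSG00000031871.9, chromosome 8, 104101625 to 104144511, plus strand), had 87, 57 and 117 counts in cKO and 22, 25 and 24 in control. Its levels were 1.46, 1.72 and 1.95 CPM in cKO against 2.92, 2.94 and 3.05 CPM in control. No cKO library reached the controls, but the fold change of -0.79 ± 0.36 did not pass (adjusted p = 0.0899). Pecam1, an adhesion molecule at endothelial borders (ENSMUSG00000020717.19, chromosome 11, 106654217 to 106750628, minus strand), had 290, 282 and 330 counts in cKO and 76, 74 and 68 in control. With 4.88, 8.5 and 5.50 CPM in cKO against 10.1, 8.71 and 8.63 CPM in control, cKO replicate 2 lay just under the controls. The fold change of Pecam1 was -0.55 ± 0.25 (adjusted p = 0.0907), and without cKO replicate 2 it was -0.80 and passed (adjusted p = 0.0124).

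Esam, an immunoglobulin-like adhesion molecule of endothelial tight junctions that is also known from platelets (ENSMUSG00000001946.14, chromosome 9, 37528078 to 37538319, plus strand), had 693, 545 and 716 counts in cKO and 48, 61 and 96 in control. These were 11.7, 16.4 and 11.9 CPM in cKO against 6.38, 7.18 and 12.2 CPM in control. Control replicate 3 lay within the cKO range and the other control libraries below it. The fold change was 0.63 ± 0.25, just short of the threshold (adjusted p = 0.0517). It passed with adjusted p between 0.0100 and 0.0494 without control replicate 3 or cKO replicate 1, with the replicate block, with no filter, with RLE factors, with totals outside the most abundant genes and among genes of at least 10 CPM. Without control replicate 3 the fold change was 0.98. It was smaller and did not pass without control replicate 1 (0.47, adjusted p = 0.211), control replicate 2 (0.52, 0.186) or cKO replicate 2 (0.47, 0.126), and in thinned libraries (0.51, 0.113).

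Plvap, Emcn and Egfl7 fell. Plvap encodes the protein of the fenestral diaphragm and is typical of fenestrated capillaries such as those of the pancreas (ENSMUSG00000034845.6, chromosome 8, 71497765 to 71511752, minus strand). It had 488, 458 and 580 counts in cKO and 144, 168 and 144 in control, or 8.21, 13.8 and 9.67 CPM in cKO against 19.1, 19.8 and 18.3 CPM in control. All cKO libraries lay below the controls, and the fold change was -0.86 ± 0.21 (adjusted p = 0.00365). Emcn, which encodes the sialomucin endomucin of capillary and venous endothelium (ENSMUSG00000054690.17, chromosome 3, 137341067 to 137432185, plus strand), had 52, 32 and 50 counts in cKO and 10, 24 and 36 in control, so that its raw counts overlapped. On the TMM scale it was at 0.875, 0.964 and 0.833 CPM in cKO and at 1.33, 2.82 and 4.57 CPM in control, with a wide spread among controls. Its fold change of -1.71 ± 0.48 (adjusted p = 0.00996) became -1.23 without control replicate 3 (adjusted p = 0.0857) and also -1.23 in libraries thinned to 1 effective size (0.0852).

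Egfl7, a secreted factor of endothelial cells (ENSMUSG00000026921.18, chromosome 2, 26580014 to 26593120, plus strand), had 148, 221 and 174 counts in cKO and 55, 60 and 76 in control. Its levels were 2.49, 6.66 and 2.90 CPM in cKO against 7.31, 7.06 and 9.65 CPM in control, and cKO replicate 2 stood close to the controls. The fold change was -1.01 ± 0.35 (adjusted p = 0.0314). It was -1.56 without cKO replicate 2, and the call was lost without any 1 of the other 5 libraries (adjusted p = 0.0618 to 0.134) and with totals outside the most abundant genes (0.0602). Egfl7 shares 64 exon bases at its 3' end with Agpat2 on the opposite strand (301, 121 and 297 counts in cKO; 42, 76 and 53 in control) and 264 with Gm20532 on its own strand.

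**Figure D3:**
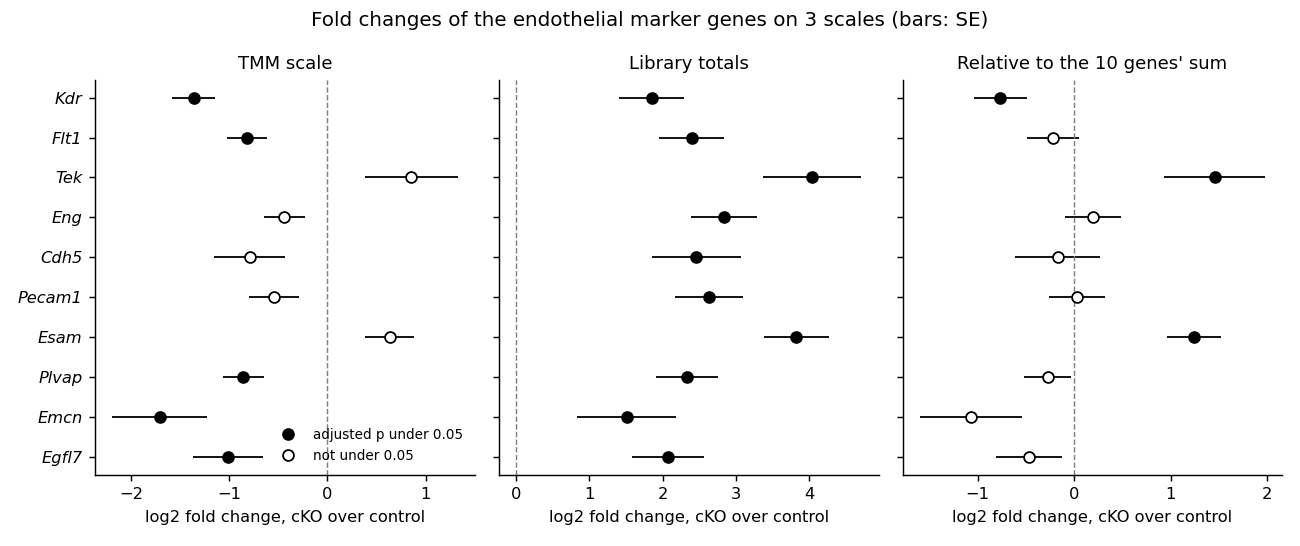
Log2 fold changes of the 10 genes, cKO over control, with SE bars, fitted on the TMM scale, on library totals and relative to the summed counts of the 10 genes; filled points passed an adjusted p of 0.05. The order of the genes is similar in each panel, from Emcn at -1.71, 1.51 and -1.07 to Tek at 0.85, 4.04 and 1.45.

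The make-up of the endothelial counts needs no library scale. In percentage points, Esam was the member whose share of the summed counts differed most, while as a ratio the share of Tek differed more. Esam held 23.6%, 22.7% and 22.3% of them in cKO and 7.40%, 8.53% and 13.0% in control. The exact 95% Clopper-Pearson interval of the highest control library (10.7% to 15.7%) did not reach that of the lowest cKO library (20.9% to 23.8%). Kdr held 9.83%, 9.34% and 9.23% in cKO and 18%, 15.2% and 15.1% in control, and again the nearest intervals, 8.77% to 11% in cKO and 12.6% to 17.9% in control, were apart. Per Kdr count there were 2.41, 2.43 and 2.42 Esam counts in cKO, against 0.410, 0.560 and 0.865 in control. Tek made up 3.25% ± 0.499 of the sum in cKO and 1.18% ± 0.227 in control (SD, n = 3 each). Plvap made up 17.9% ± 1.23 in cKO and 21.8% ± 2.0 in control. Flt1 made up 12.1% ± 0.764 in cKO and 14.1% ± 1.6 in control. Points of the groups did not overlap for either gene, but the exact 95% intervals of the nearest libraries did. For Plvap these were 17.5% to 20.7% (cKO replicate 2) and 16.8% to 22.6% (control replicate 3). For Flt1 cKO replicate 1 (11.7% to 14.1%) and control replicate 3 (10.6% to 15.5%) both rounded to 12.9%. Pecam1, at 10.7% ± 0.980 in cKO and 10.4% ± 1.24 in control, Cdh5, Eng, Emcn and Egfl7 had overlapping shares. These intervals cover counting error only.

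With the summed counts of the 10 genes as library size, edgeR called Esam (1.24 ± 0.28, SE; adjusted p = 0.0010) and Tek (1.45 ± 0.52; adjusted p = 0.0257) higher and Kdr (-0.77 ± 0.27; adjusted p = 0.0236) lower in cKO than the members together. On that scale 41.1% of all tested genes were called higher and 9.02% lower. Fold changes of the other members lay between -1.07 for Emcn (adjusted p = 0.0973) and 0.19 for Eng (0.604). Among them, Plvap was at -0.28 (adjusted p = 0.358) and Flt1 at -0.22 (0.516). Each member is part of its own denominator here, and the counting error of the denominator is not in the SE.

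**Figure D4:**
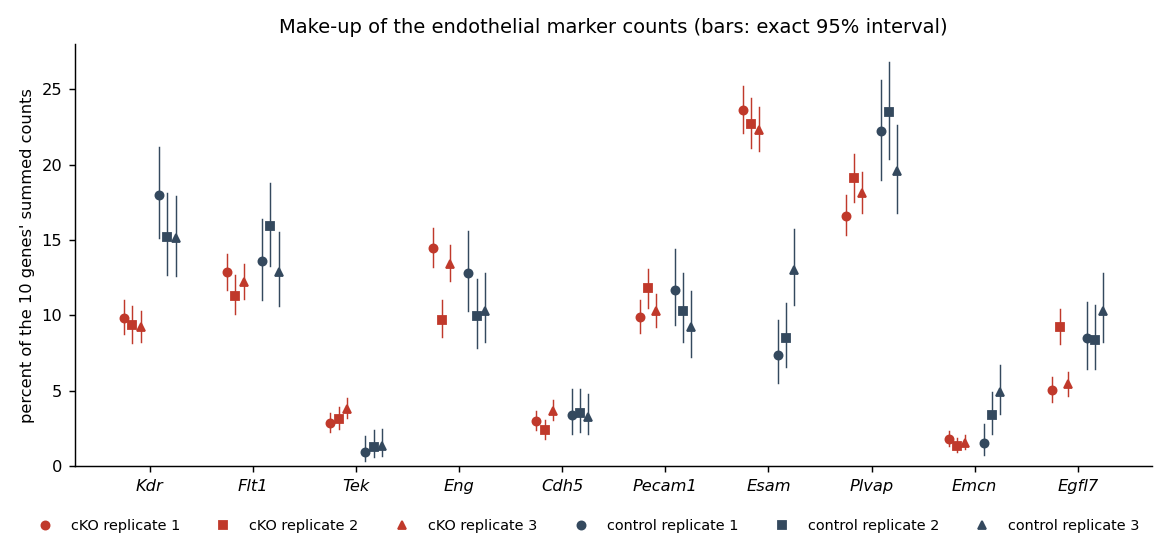
Percent of the summed counts of the 10 endothelial marker genes that each gene held, cKO libraries left and control libraries right of each gene name, with exact 95% intervals. Esam (22.3% to 23.6% in cKO, 7.40% to 13.0% in control) and Kdr (9.23% to 9.83% in cKO, 15.1% to 18% in control) stand apart between the groups, while Pecam1 and Cdh5 overlap.

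Further genes of endothelium and angiogenesis were mixed. Over 6 lists, 83 rows were tested, of which 33 (39.8%) rose and 8 (9.64%) fell, where 24% of all tested genes were called higher and 20.7% lower. That difference from all genes was not tested, and the same background shares apply to each of these lists. The 8 lower calls became 3 to 9 when 1 library was left out. There were 3 without cKO replicate 1, 9 without cKO replicate 2 and 4 without cKO replicate 3. Without control replicates 1, 2 and 3 there were 6, 7 and 5. Among 15 tested transcription factors of endothelial development 5 rose and 0 fell (median 0.19). Fli1, an ETS factor also found in leukocytes, averaged 10.6 ± 3.49 CPM in cKO and 2.27 ± 0.80 in control (SD, n = 3 each) and rose by 2.23 ± 0.33 (SE; adjusted p = 6.53e-05). Klf2, a shear-stress factor also expressed in other cells, rose by 1.55 ± 0.17, Mef2c by 1.62 ± 0.19, Nr2f2, the venous factor COUP-TFII, by 0.69 ± 0.16 and Elk3 by 0.83 ± 0.25. Elk3 lost its call without cKO replicate 1 (adjusted p = 0.0774) or cKO replicate 3 (0.0588). Tal1, which is shared with blood cells, had 40, 26 and 26 counts in cKO and 3, 0 and 0 in control and did not pass (adjusted p = 0.0844). All of these factors are also known from cells other than endothelium.

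Of 26 tested surface and junction genes 8 rose and 2 fell (median 0.18). Clec14a, a lectin-like receptor of endothelial cells, fell: it had 28, 17 and 51 counts in cKO and 24, 15 and 26 in control, or 0.611 ± 0.208 CPM in cKO and 2.75 ± 0.856 in control (-2.15 ± 0.50; adjusted p = 0.00286). Cd34, found on endothelium, fibroblasts and progenitors, was at 211 ± 5.54 CPM in cKO and 47.8 ± 4.8 in control and rose by 2.14 ± 0.16 (adjusted p = 6.2e-07). The VEGF and semaphorin co-receptor gene Nrp1 rose by 1.09 ± 0.15, Adgrf5 by 1.46 ± 0.20, Ramp2, a partner of the adrenomedullin receptor, by 1.85 ± 0.31, and Cd93 by 1.20 ± 0.23. Of 16 secreted and luminal genes 8 rose and 2 fell (median 1.12). The leukocyte adhesion receptors of inflamed endothelium Vcam1 (24.8 ± 9.51 CPM in cKO, 3.35 ± 1.17 in control; 2.89 ± 0.32) and Icam1 (1.86 ± 0.24) rose, as did Cd36 (1.16 ± 0.22), the endothelin gene Edn1 (2.35 ± 0.51), Tm4sf1 (0.98 ± 0.28) and Ace (1.24 ± 0.35). Edn1 was at 3.55 without control replicate 3, and Ace lost its call without cKO replicate 3 (adjusted p = 0.0570) or control replicate 3 (0.0537). Vwf, the von Willebrand factor gene, singled out after its values were seen, had 60, 60 and 81 counts in cKO and 3, 0 and 2 in control and rose (adjusted p = 0.0123), a call lost in thinned libraries (0.0743).

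Among lymphatic genes 4 of 6 tested rose (median 2.02), and the defining ones did not pass. Prox1, the master factor of lymphatic endothelium, had 41, 11 and 24 counts in cKO and 4, 8 and 7 in control (-0.72 ± 0.64; adjusted p = 0.392), and Flt4, which encodes VEGFR3, had 53, 81 and 90 counts in cKO and 3, 4 and 12 in control (1.00 ± 0.63; adjusted p = 0.211). Lyve1, shared with tissue macrophages, was at 60.1 ± 17.6 CPM in cKO and 14.7 ± 1.22 in control and rose by 2.03 ± 0.21. Pdpn, shared with fibroblasts and mesothelium, rose by 2.02 ± 0.16. Reln had 48, 37 and 57 counts in cKO and 1, 0 and 0 in control. The symbol Ccl21a stood on 2 rows, of which 1 held counts (873, 451 and 637 in cKO; 29, 7 and 3 in control) and rose, and near-identical copies make its counts uncertain.

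Of 8 tested genes of the VEGF and angiopoietin ligand families 3 rose and 3 fell (median 0.12). Among ligands of the receptors encoded by Kdr, Flt1 and Tek, Vegfb, Pgf and Angpt1 fell and Angpt2 passed the test as higher. Vegfb, a ligand of the Flt1 receptor, fell to 5.18 ± 0.891 CPM in cKO, against 16.2 ± 1.05 in control (-1.64 ± 0.21; adjusted p = 1.81e-05), and Pgf, another ligand of that receptor, fell by 1.46 ± 0.46 (0.0174). Pgf lost its call without cKO replicate 1, cKO replicate 3 or control replicate 2 (adjusted p = 0.0632 to 0.125). Figf, which encodes VEGF-D, a ligand of VEGFR3, rose to 12.8 ± 4.07 CPM in cKO, against 1.04 ± 0.829 in control (3.66 ± 0.49; adjusted p = 7.87e-05). Vegfa, the main ligand of Kdr, named after its values were seen, was at 15.7 ± 2.73 CPM in cKO and 22.4 ± 6.11 in control and did not pass (-0.52 ± 0.21; adjusted p = 0.0619), though it passed without control replicate 1 (-0.72, adjusted p = 0.0169), in thinned libraries (0.0427) and with the replicate block (0.0455). For the Tek receptor, Angpt1, its activating ligand, had 50, 64 and 100 counts in cKO and 41, 101 and 65 in control and fell by 2.55 ± 0.37 (adjusted p = 6.47e-05). Angpt2, the context-dependent antagonist made by endothelium, had 23, 21 and 29 counts in cKO and 0 in each control library. Against a floor of 3 counts per control library it was at least 1.26-fold higher in cKO on the TMM scale and at least 11.6-fold higher per library total, and it passed the test (adjusted p = 0.00974). Angptl4, an inhibitor of lipoprotein lipase, rose by 2.12 ± 0.25.

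Of 12 tested genes around endoglin 5 rose and 1 fell (median 0.52). Acvrl1, which encodes ALK1, the type I receptor that works with endoglin, rose to 9.41 ± 0.380 CPM in cKO, against 4.71 ± 0.620 in control (1.00 ± 0.23; adjusted p = 0.00241). Tgfbr2 (2.15 ± 0.22), Tgfbr3 (2.46 ± 0.28) and Tgfbr1 (1.04 ± 0.31), the widely expressed TGF-β receptors, and the target gene Id3 (1.35 ± 0.22) rose. Smad6, an inhibitor of the same pathway, fell by 1.08 ± 0.36 (adjusted p = 0.0238). Smad6 lost its call without cKO replicate 1, cKO replicate 3 or control replicate 3 (adjusted p = 0.0721 to 0.108), and Tgfbr1 without cKO replicate 3 (0.0669) and in thinned libraries (0.0570). Gdf2 and Bmp10, the high-affinity ligands of ALK1, had 0 counts in all 6 libraries.

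Markers of other cells of the pancreas changed in the same libraries. All 10 fibroblast and stellate markers rose (median 2.39), with a summed level of 3675 to 5239 CPM in cKO and 749 to 844 in control. All 10 macrophage and monocyte markers rose as well (median 2.74), with 446 to 874 CPM in cKO and 107 to 147 in control. Relative to the summed endothelial counts, each of these 20 genes was higher in cKO (adjusted p under 0.05, library size set to that sum; 41.1% of all tested genes were). There were 106, 50.8 and 90.9 fibroblast marker counts per endothelial marker count in cKO, against 9.36, 8.90 and 9.03 in control. For macrophage markers the numbers were 17.7, 6.17 and 13.7 in cKO and 1.70, 1.40 and 1.15 in control. Col1a1, a fibrillar collagen gene, was at 631 ± 109 CPM in cKO and 95 ± 14 in control, Adgre1, which encodes the macrophage antigen F4/80, at 35.5 ± 13.5 in cKO and 4.5 ± 1.29 in control, and Ptprc, the pan-leukocyte CD45 gene, at 25.5 ± 11.2 in cKO and 3.74 ± 2.31 in control.

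Pericytes and smooth muscle are the mural cells that wrap vessels. Of 10 mural cell markers 3 rose and 0 fell (median 0.63), where 24% of all tested genes were called higher and 20.7% lower. Relative to the summed endothelial counts 5 of these markers were higher and 0 lower in cKO. On that scale 41.1% of all tested genes were called higher and 9.02% lower. Rgs5, a pericyte marker, had 132, 138 and 186 counts in cKO and 16, 17 and 30 in control and did not pass (0.25 ± 0.38; adjusted p = 0.624; relative to the endothelial sum 0.84, adjusted p = 0.0923). Islet markers, from another well vascularised tissue of the organ, had 0 that rose and 1 of 7 that fell (median -0.28), and Ins2 was at 312 ± 102 CPM in cKO and 323 ± 93.8 in control. Of 4 tested platelet markers Pf4 and Itgb3 (2) rose. Of the 3 not tested, Ppbp had 17, 2 and 16 counts in cKO and 0 in each control library, Gp9 had 1 count in 1 cKO library and Gp6 had 0 counts in all 6 libraries. Msln (mesothelium; 2.01 ± 0.27) and Krt19 (duct; 1.03 ± 0.17) rose, and Cpa1 (acinar; -4.09 ± 0.80) fell. Among the endothelial members, at least Pecam1, Eng, Esam and Flt1 are shared with cell types whose markers rose. The part of other cells in the values of any member, Tek included, was not tested.

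**Figure D5:**
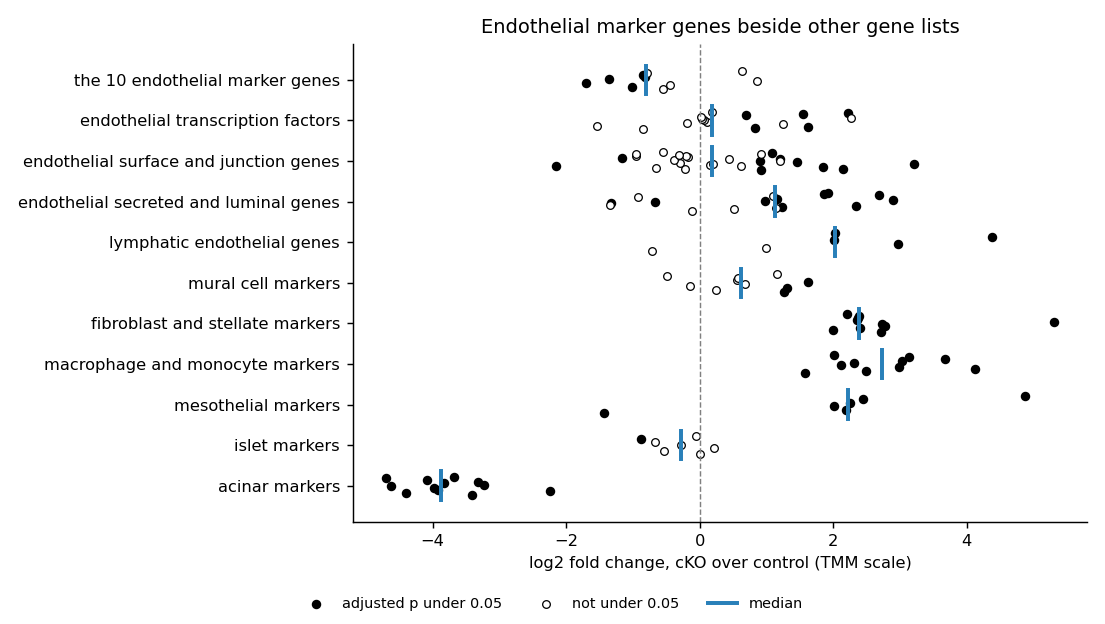
Log2 fold change, cKO over control, on the TMM scale for every tested gene of 11 lists; filled points passed an adjusted p of 0.05 and blue lines are medians. The median of the 10 endothelial marker genes is -0.81, between that of the acinar markers (-3.88) and those of the fibroblast (2.39) and macrophage (2.74) markers.

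The genes whose pattern was most like the members' mean were sought among 4327 named genes of mean log2 CPM at least 3, by the root mean square difference of centred log2 CPM over the 6 libraries. They were Atf4 (difference 0.0358), Esf1 (0.0525), Surf4 (0.0766), Prdx6 (0.0793) and Pno1 (0.0842), with fold changes between -0.63 and -0.55. The members' own differences from their mean ran from 0.167 for Flt1 to 0.721 for Tek. Flt1, Pecam1, Plvap, Cdh5 and Eng lay within 0.248 of that mean. The 5 genes were picked as the nearest of 4327 by this same measure, and the members were not held to the minimum level set for candidates. Their smaller differences therefore do not bear on how alike the members are.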

How the data were processed

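For each library the authors deposited a table of gene symbols and read counts, whole numbers that carry no scaling. Tools and builds listed in the submitters' processing notes are Bowtie2, edgeR, mm10 and GRCm38, without roles or versions, and no counting tool, annotation or strand setting was found in the sources used here. Coordinates and exon overlaps came from GENCODE M21 (GRCm38). Genes were tested with edgeR 4.0.16 (glmQLFit with robust estimation, glmQLFTest) in R 4.3.3 after filterByExpr (minimum count 10, minimum total 15) and TMM scaling, with Benjamini-Hochberg adjustment over all 13132 tested genes. SE is the fold change divided by the square root of F. CPM are per M of the TMM-scaled library size, which averaged 50.9 M in cKO and 7.97 M in control, and log2 CPM used a prior count of 2. PCR copies are counted, so intervals cover counting error only. Replicates differed by more than sampling noise (chi-square per degree of freedom 14.6 to 370). The fit was tested on simulated data. DESeq2 1.42.0 was an alternative.

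The members and lists were chosen with earlier results of these data known. In each list up to 6 genes of smallest p are named, with Ptprc, Col1a1, Adgre1, Rgs5, Msln, Krt19, Ins2 and Cpa1 for other cells; Vwf, Vegfa, Fpgs, Agpat2, Pf4 and Itgb3, and list genes that were not tested, were added after their values were seen. No test was made over a list, on a score or on the summed counts. Alternatives were other scales, filters, DESeq2, thinning, a non-robust fit, a replicate block and leaving out each library.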

Additional observations from a re-analysis of the deposited data

How the results depend on the processing

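Scale mattered most. Fitted on library totals, 12653 genes were called higher and 53 lower in cKO, 10 of the 10 marker genes higher and 0 lower with a median of 2.43, and 81 of the other endothelial and angiogenic genes higher and 0 lower. On that scale the fold changes turned positive for Pecam1 (2.63), Cdh5 (2.46), Plvap (2.33), Kdr (1.85), Flt1 (2.40), Emcn (1.51), Eng (2.84), Egfl7 (2.07), Clec14a (1.14), Prox1 (2.58), Vegfb (1.62), Angpt1 (0.63), Pgf (1.70), Vegfa (2.74), Smad6 (2.13), Ins2 (3.12), Fpgs (1.77) and Agpat2 (2.68). With the marker genes' own sum as library size, 5392 genes were higher and 1185 lower. On that scale 2 marker genes were higher and 1 lower with a median of -0.20, and 45 other endothelial genes were higher and 3 lower. There Pecam1 was at 0.03, Eng at 0.19, Vegfa at 0.11, Ins2 at 0.51 and Agpat2 at 0.02. The log2 ratio of the summed share was 2.61 on library totals, -0.44 outside the most abundant genes and -0.59 on the TMM scale. Totals outside the most abundant genes gave 1 marker gene higher and 4 lower, with 36 other endothelial genes higher and 5 lower. RLE factors and the absence of a filter each gave 1 marker gene higher and 5 lower. Among 4190 genes of at least 10 CPM, 1443 were higher and 1425 lower, with 1 of 4 marker genes higher and 3 lower, and 18 other endothelial genes higher and 1 lower. Ins2 was at 0.10 outside the most abundant genes, 0.16 among genes of at least 10 CPM, 0.18 without cKO replicate 1 and 0.22 without control replicate 2, within a range of -0.29 to 0.22 when 1 library at a time was left out. The cause of these shifts between scales was not tested.

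Leaving out 1 library at a time gave 2388 to 3411 genes higher and 2077 to 2829 lower, 0 to 1 marker genes higher and 3 to 6 lower with medians of -0.87 to -0.69, and 27 to 33 other endothelial genes higher and 3 to 9 lower. The summed share then had log2 ratios of 2.53 to 2.75. Same-numbered libraries did not deviate together (correlations 0.014, -0.030 and -0.008), and a replicate block gave 1 marker gene higher and 5 lower. Over all alternatives, fold changes of marker genes kept their direction and side of the threshold in 130 cases, passed it anew in 12, lost it in 12 and changed sign in 10. Few counts in control limit Tek, Emcn and Cdh5, and 3 libraries a group allow no exact permutation p below 0.1.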
